A study of Mus musculus with 18 samples.

Results

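The transcripts Mfsd2a, Nupr1 and Nupr1l, 3 of the 14664 genes tested, were followed across the mouse thyroid after part of the gland had been removed. The genes were chosen by measured values, the dissected minus normal differences of Mfsd2a and Nupr1l in the central area, which ranked 3 and 2 of all genes by p, and Nupr1 as the relative of Nupr1l. Values in that comparison are therefore described without a test. All probes carrying their names were taken, which gave 4 of 41174 gene probes, and 3 of the 4 passed the filter on dim signals. The Mfsd2a probe is called Mfsd2 in the files and both Nupr1l probes 4930579G22Rik, names that a RefSeq table of the assembly GRCm38.p6 gives as older symbols of these genes. The name 2810453I06Rik, which had been listed as a further alias of Nupr1l, belongs to Fam220a in that table, and its 2 probes were not counted.

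The arrays came from laser-captured thyroid of male C57BL/6 mice, in 4 groups. These were the central area of the lobe after partial thyroidectomy (dissected central, n = 5), the central area of untouched thyroid (normal central, n = 5), the peripheral area after partial thyroidectomy (dissected peripheral, n = 5) and the peripheral area of untouched thyroid (normal peripheral, n = 3). Each of the 18 arrays carried amplified RNA of 1 captured area in the dye Cy5 and a common RNA of Swiss Webster mouse tissues, thyroid not among them, in Cy3. How long after the operation tissue was taken, and from which mouse, is not in the labels, and areas are mixtures of cell types, so that fewer cells of a type and less RNA per cell cannot be told apart. Every group lay at its own position on the slides, so position and group cannot be told apart either.

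The level of a gene is given as the log2 ratio of tissue over the common reference, and a difference as the difference of mean log2 ratios, dissected minus normal unless stated. The share of gene probes detected in Cy5 (well above background) was 24.7% to 44%, lowest on normal peripheral 1, dissected central 1 and 2 and dissected peripheral 1. Thyroid tissue was checked by its markers. Tg, the thyroglobulin gene, was well above background on 18 of 18 arrays at log2 ratios of 0.69 to 3.01, and Nkx2-1, a thyroid transcription factor, on 18 of 18 at -0.67 to 0.64, while 11 of the 13 thyrocyte markers had a probe that passed the filter. Foxe1 and Slc5a5 did not. Of those 11 markers 0 were called by limma between dissected and normal areas, as 0 of all 14664 genes were in either area. Their median differences were -0.03 in the central area and 0.17 in the periphery.

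Mfsd2a encodes a sodium-dependent transporter of the major facilitator superfamily that moves lysophosphatidylcholine carrying long-chain polyunsaturated fatty acids across membranes. It is best known from the endothelium of the blood-brain barrier and, in mouse liver and brown fat, as a gene induced by fasting. Nupr1 (also p8 or Com1) encodes a small, disordered, basic nuclear protein that cells induce under stress, downstream of ATF4 in the integrated stress response. Nupr1l, also called Nupr2, encodes its paralog, which in human cells is a p53 target that lowers NUPR1 expression.

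The 250 bases upstream of the annotated starts of the 3 genes are shown to set the start regions of the 3 genes side by side, since stress induction of Nupr1 is known to run through such short elements. They come from RefSeq on GRCm38.p6, 5′ to 3′ on the strand of the gene, and all 3 genes were found in the table. Capitals mark the letters of 6 short motifs searched on both strands, namely the CCAAT box, the E box with the letters CACGTG, a partial cAMP response element with the letters TGACG, the ATF4 composite site with the letters TGATGNAA, the GC box with the letters GGGCGG, and the TATA box with the letters TATAA.
Mfsd2a, chr4:122961189-122961438, minus strand: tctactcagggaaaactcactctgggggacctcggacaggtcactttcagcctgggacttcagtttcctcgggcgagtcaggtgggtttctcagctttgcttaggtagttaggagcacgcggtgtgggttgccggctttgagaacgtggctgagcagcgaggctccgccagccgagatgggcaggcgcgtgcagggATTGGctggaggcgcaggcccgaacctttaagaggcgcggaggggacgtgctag
Nupr1l, chr5:129908290-129908539, plus strand: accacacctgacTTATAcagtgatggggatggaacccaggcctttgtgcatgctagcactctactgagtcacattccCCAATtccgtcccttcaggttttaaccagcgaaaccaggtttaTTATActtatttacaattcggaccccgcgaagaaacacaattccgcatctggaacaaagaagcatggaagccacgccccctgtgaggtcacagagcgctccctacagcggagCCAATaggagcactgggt
Nupr1, chr7:126625471-126625720, minus strand: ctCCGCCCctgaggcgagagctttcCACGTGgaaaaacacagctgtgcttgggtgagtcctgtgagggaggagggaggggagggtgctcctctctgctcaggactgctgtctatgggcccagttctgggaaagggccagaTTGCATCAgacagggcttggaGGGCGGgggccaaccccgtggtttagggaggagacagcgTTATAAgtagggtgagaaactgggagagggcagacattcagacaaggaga

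The Nupr1 window held the ATF4 composite letters once, 110 to 103 bases upstream of the start and on the opposite strand, and so did 3.45% of the 32851 promoter windows of that length in the table. It also held 1 E box, found in 6.02% of windows, 2 GC boxes, found in 32.7%, and a palindromic site at which the letters TATAA match once on each strand. TATAA occurred in 22.8% of windows. The Nupr1l window had neither the E box nor the ATF4 letters but 2 CCAAT matches, the nearer one 18 to 14 bases upstream, and 2 matches of TATAA at 238 to 234 and 130 to 126 bases. The Mfsd2a window had a single CCAAT match 54 to 50 bases upstream, a motif present in 33.8% of windows, and no other match. No window held TGACG, which 17.8% of windows hold. These are matches of letters, not sites of binding.

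Mfsd2a was higher in the central area after surgery. Its log2 ratios on dissected central arrays 1 to 5 were 0.14, 0.22, 0.59, 0.58 and 0.27. On normal central arrays 1 to 5 they were -1.34, -2.18, -2.19, -0.93 and -1.35. All 5 dissected areas thus lay above the reference and all 5 normal areas below it, with no overlap between the groups. The means were 0.36 ± 0.21 and -1.60 ± 0.56 (SD, n = 5 each), a difference of 1.96 or 3.88-fold, and 3 of the 14664 genes had a larger one. In this comparison 63 genes, 0.43%, had all dissected arrays above all normal ones, and since the comparison chose Mfsd2a, nothing is read from its place among them.

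The spots were dim. Cy5 intensity above local background was 147 to 724 on dissected central arrays and 54 to 221 on normal central arrays, where 3 of 5 spots were well above background against 5 of 5 after surgery. The intensity ranges overlapped. The 2 lowest dissected intensities, 147 and 148, came from the weak arrays dissected central 1 and 2, on which the Cy3 intensity of this probe was also low, at 150 and 133. On the other central arrays Cy3 was 288 to 406 after surgery and 281 to 411 in normal thyroid. Without the 4 arrays with the lowest share of detected probes the difference was 2.08, and with Cy5 alone it was 1.76. With Agilent's processed signals it came to 3.64. Its probe lies on chromosome 4 at 122391585 to 122391644 of the mouse build mm7, on the minus strand.

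**Figure D1:**
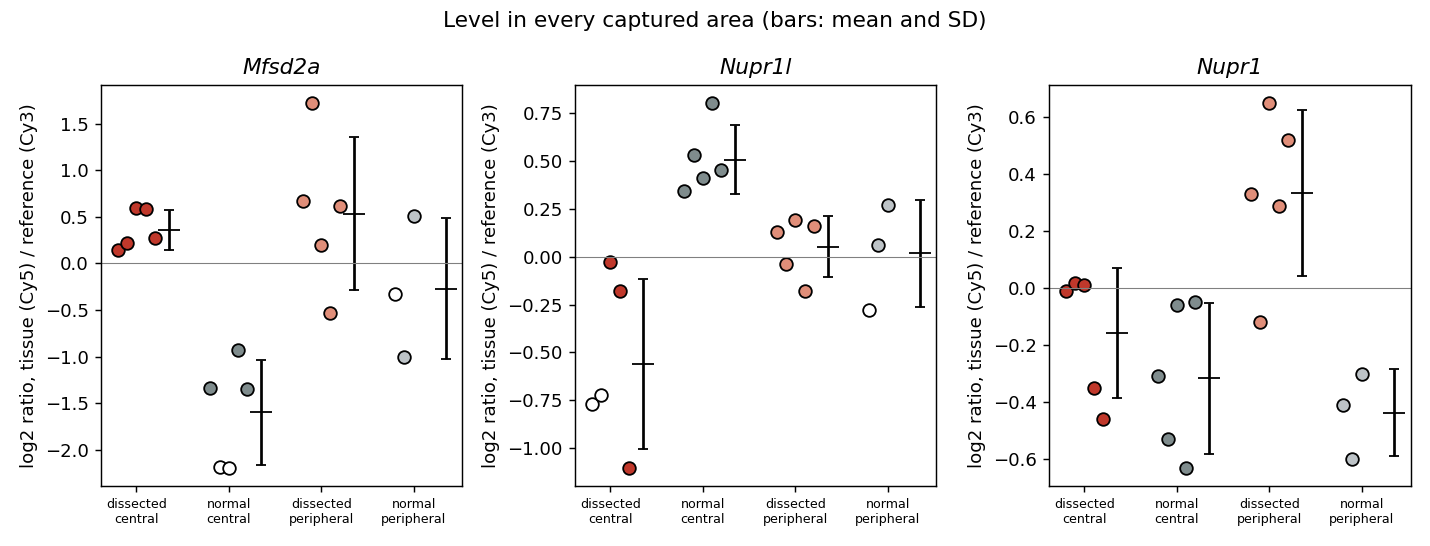
Log2 ratio of tissue over common reference for each gene on every array, by group; points are arrays, bars to the right show the mean and SD, and open points are spots whose Cy5 signal was not well above background. Mfsd2a in dissected central areas sits at 0.14 to 0.59 and in normal central areas at -2.19 to -0.93, while for Nupr1l the dissected central points lie below all normal central ones.

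Nupr1l moved the other way in the central area. Dissected central arrays 1 to 5 had log2 ratios of -0.77, -0.72, -0.03, -0.18 and -1.10. Normal central arrays 1 to 5 had 0.34, 0.53, 0.41, 0.80 and 0.45. The groups did not overlap, and the dissected areas were the more scattered ones, with 2 arrays just under the reference level and 3 well under it. The means were -0.56 ± 0.44 and 0.51 ± 0.18 (SD, n = 5 each), a difference of -1.07, or 2.1-fold lower, and 16 genes had a more negative one. Dissected arrays lay wholly below normal ones for 84 genes, 0.573%, which again includes the gene by its choice.

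Cy5 intensities of Nupr1l were 47 to 466 on dissected central arrays and 392 to 1229 on normal central arrays. The spots of dissected central 1 and 2, at 55 and 47, were not well above background, so their ratios are imprecise. Those 2 arrays are among the 4 weak ones, without which the difference was -0.95. It was -1.45 with Cy5 alone and -2.01 with Agilent's processed signals. The probe lies on mm7 chromosome 5 at 129148974 to 129149033. The other Nupr1l probe, at 129151432 to 129151491, was well above background on 0 of 18 arrays, with Cy5 intensities of 20 to 113, and was not tested.

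Markers of C cells, the calcitonin-producing cells of the thyroid, also had lower group means after surgery in the central area, though not on every array. Of the 11 measured markers 0 had a difference above 0, where 7146 of all 14664 genes had one. Their median difference was -0.72 where that of all genes was -0.01, and none passed the test of limma, as no gene did. Their mean log2 ratio was 0.07, -1.21, 1.00, 0.78 and 0.80 on dissected central arrays 1 to 5 and 0.73 to 1.5 on normal central arrays. Dissected central 3, 4 and 5 thus lay inside the normal range, and the low arrays 1 and 2 are among the weak ones. The Nupr1l ratios of the same arrays 1 to 5 were -0.77, -0.72, -0.03, -0.18 and -1.10. Dissected central 1 and 2 were thus lower in both measures and 3 and 4 higher in both. Dissected central 5 had the lowest Nupr1l ratio with a C cell mean of 0.80. In the periphery 0 of the 11 markers had a difference above 0 as well, with a median of -0.89 where that of all genes was 0.01, while Nupr1l differed there by 0.04. The part of C cells in the central Nupr1l difference was not tested.

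Nupr1, the stress gene itself, overlapped between the groups in the central area. Its ratios on dissected central arrays 1 to 5 were -0.01, 0.02, 0.01, -0.35 and -0.46, and on normal central arrays 1 to 5 they were -0.31, -0.53, -0.06, -0.63 and -0.05. The groups overlapped over most of their range. The means were -0.16 ± 0.23 and -0.31 ± 0.27 (SD, n = 5 each), a difference of 0.16, smaller than either SD. Its sign turned under other scalings, to -0.11 with median centring, under which the median of all genes was -0.148, and to -0.03 with Cy5 alone. Its probe was well above background on 18 of 18 arrays. Cy5 intensities were 655 to 2406 on dissected central and 1616 to 4282 on normal central arrays, and Cy3 intensities 696 to 2270 and 1900 to 2468.

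**Figure D2:**
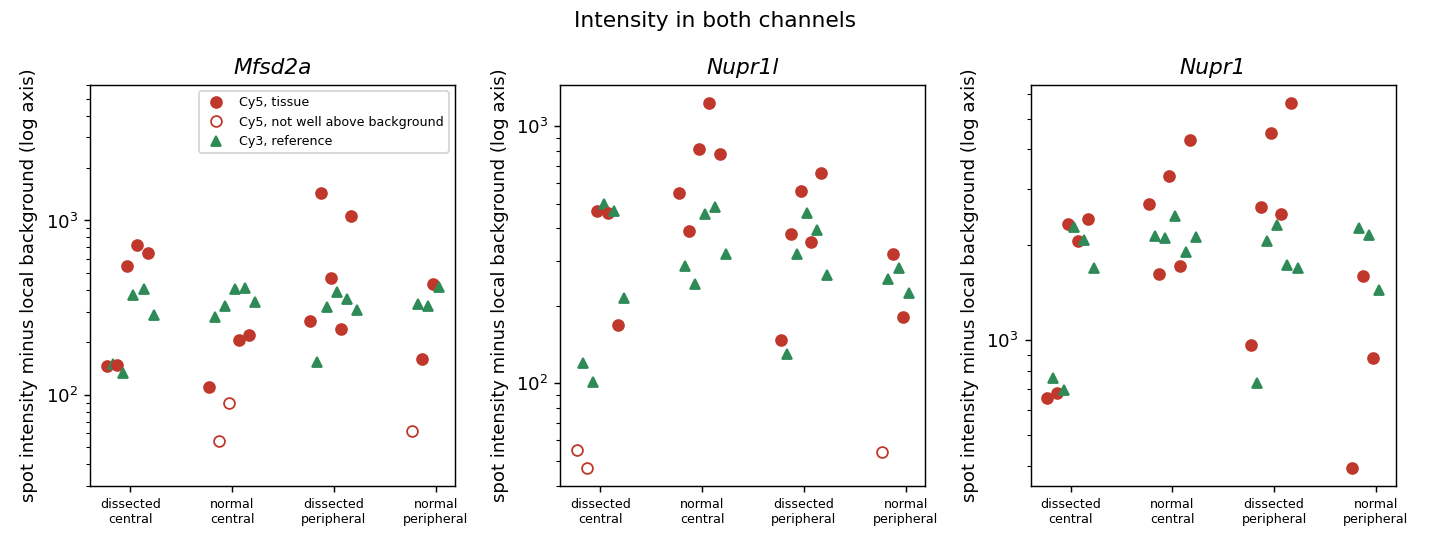
Spot intensity minus local background in both channels, on a log axis, for each gene on every array, by group; red circles are Cy5 (tissue), open where not well above background, and green triangles are Cy3 (common reference). Both channels were low on dissected central 1 and 2 and dissected peripheral 1, for example 655, 680 and 962 in Cy5 for Nupr1.

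The peripheral area gave a second comparison of dissected with normal thyroid. Its differences did not choose the genes, although the model took the spread of each gene from all 18 arrays, peripheral and central together. Nupr1 was higher in dissected than in normal periphery on every array, Nupr1l had nearly equal means, and Mfsd2a had overlapping groups and a difference of 0.81, about the size of the SD within groups. By limma with Benjamini-Hochberg adjustment over all genes, none of the 3 was called at an adjusted p under 0.05. Of 14664 genes 0, or 0%, were called in this comparison in either direction, and 1223, or 8.34%, had an unadjusted p under 0.05. The regions are not tied to animals, so p-values over regions may be too small.

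For Nupr1 the log2 ratios on dissected peripheral arrays 1 to 5 were 0.33, -0.12, 0.65, 0.29 and 0.52. On normal peripheral arrays 1 to 3 they were -0.41, -0.60 and -0.30. The lowest dissected value exceeded the highest normal one. The means were 0.34 ± 0.29 (SD, n = 5) and -0.44 ± 0.15 (SD, n = 3), a difference of 0.77 or 1.71-fold (SE 0.19, 95% interval 0.38 to 1.17, limma adjusted p = 0.38, unadjusted p = 0.000649). An exact two-sided permutation test gave p = 0.0179, the smallest that 5 against 3 arrays allow. Dissected arrays lay wholly above normal ones for 316 genes, 2.15% of those tested, and wholly below for 1.95%, and 139 genes had a larger difference. Within slides the difference was 0.59, 0.74 and 0.49, and it was 0.77 and 0.75 on the 2 scan days. Without the 4 weak arrays it was 0.79. Median centring, under which the median of all genes was 0.235, gave 1.36, or 1.12 above that median. In the same comparison the mean log2 ratio of the C cell markers was -2.45 to -2.04 on dissected and -1.7 to -0.95 on normal peripheral arrays, with no overlap. The thyrocyte markers had a difference above 0 for 10 of 11, where 7482 of all 14664 genes had one. Their array means were 0.05 to 0.52 on dissected and -0.09 to 0.16 on normal peripheral arrays. The part of these cells in the Nupr1 difference was not tested. The probe lies on mm7 chromosome 7 at 122720022 to 122720081, on the minus strand.

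Mfsd2a on dissected peripheral arrays 1 to 5 had log2 ratios of 0.67, 1.72, 0.20, -0.53 and 0.62. On normal peripheral arrays 1 to 3 it had -0.33, -1.0 and 0.51. The groups overlapped, with dissected peripheral 4 below 2 of the 3 normal areas and normal peripheral 3 above 2 of the 5 dissected ones. The means were 0.54 ± 0.82 (SD, n = 5) and -0.27 ± 0.76 (SD, n = 3), a difference of 0.81 (SE 0.41, 95% interval -0.05 to 1.68, limma adjusted p = 0.613, exact permutation p = 0.232). The direction was not the same in all batches. It was -1.04 on slide 2, 1.0 on slide 3 and 2.73 on slide 4, and -0.67 on the first scan day, which held 1 normal array, against 1.67 on the second. Cy5 intensities were 238 to 1432 on dissected and 62 to 430 on normal peripheral arrays, 5 of 5 and 2 of 3 of them well above background. The difference was 0.45 without normal peripheral 2, 0.52 without dissected peripheral 2 and 1.2 without normal peripheral 3, and with Agilent's processed signals it was 1.5.

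Nupr1l on dissected peripheral arrays 1 to 5 had log2 ratios of 0.13, -0.04, 0.19, -0.18 and 0.16. On normal peripheral arrays 1 to 3 it had -0.28, 0.06 and 0.27. Every dissected value lay inside the range of the normal ones. The means were 0.05 ± 0.16 (SD, n = 5) and 0.02 ± 0.28 (SD, n = 3), a difference of 0.04 (SE 0.21, 95% interval -0.40 to 0.48, limma adjusted p = 0.982, exact permutation p = 0.804). The difference between the areas in the response to surgery was not tested, since the central values chose this gene. The spot on normal peripheral 1 was not well above background, and without that array the sign turned, to -0.11. Within slides 2, 3 and 4 the difference was -0.45, 0.41 and -0.1, and it was 0.51 with Agilent's processed signals and 0.58 with Cy5 alone.

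**Figure D3:**
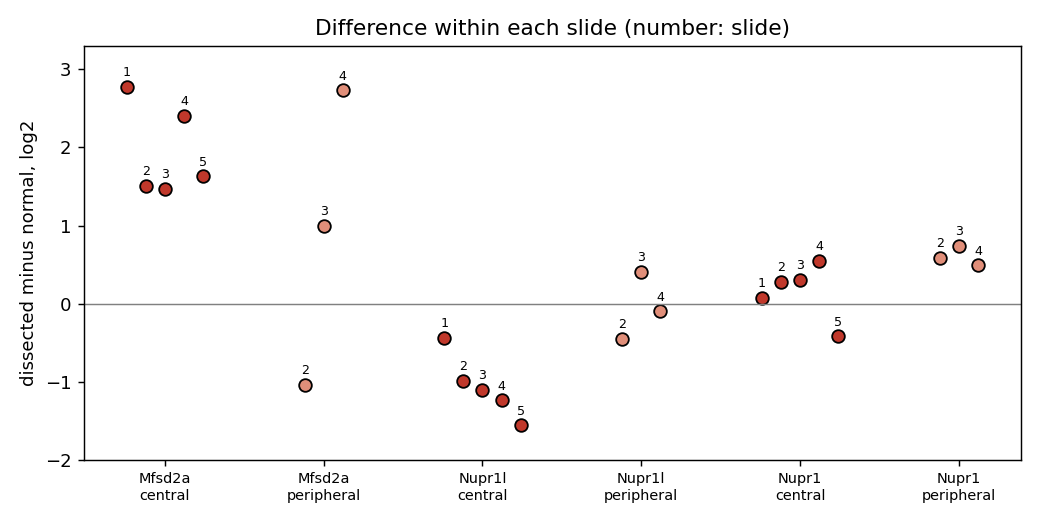
Dissected minus normal difference in log2 ratio within each slide, by gene and area; each point is 1 dissected array minus 1 normal array, and the number is the slide. Central differences of Mfsd2a are 1.47 to 2.78 and those of Nupr1l -1.56 to -0.44 on 5 slides, peripheral differences of Nupr1 are 0.49 to 0.74 on 3 slides, and peripheral differences of Mfsd2a run from -1.04 to 2.73.

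The order of the 4 groups was different for each gene. Mfsd2a was highest in dissected peripheral areas (0.54), then dissected central (0.36), normal peripheral (-0.27) and normal central (-1.60), and each neighbouring pair in that order overlapped. Nupr1l was highest in normal central areas (0.51), followed by dissected peripheral (0.05), normal peripheral (0.02) and dissected central (-0.56). Only its top group stood clear of the next, the normal central arrays lying above all dissected and normal peripheral ones. Nupr1 was highest in dissected peripheral areas (0.34), ahead of dissected central (-0.16), normal central (-0.31) and normal peripheral (-0.44), with every neighbouring pair overlapping. Central minus peripheral, Mfsd2a differed by -0.18 after surgery and by -1.32 in normal thyroid, Nupr1l by -0.61 and 0.49, and Nupr1 by -0.49 and 0.12. These area differences share arrays with the comparison that chose the genes and were not tested.

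The genes with the most similar course were those whose log2 ratios, after removal of each gene's mean, had the smallest root mean square difference from the member over the 18 arrays. For Mfsd2a, whose ratios had an SD of 1.07, no gene came closer than 0.70, where the median gene stood at 1.08. The nearest was Slc14a2, a urea transporter known from the kidney, with mean log2 ratios of 0.30 in dissected central, -1.10 in normal central, 0.37 in dissected peripheral and -0.65 in normal peripheral areas. Next came Tef, a bZIP transcription factor with a daily rhythm (0.73), Slc5a3, the sodium and myo-inositol cotransporter (0.74), Misp3 (0.75) and the tetraspanin Tspan4 (0.76). All 5 had higher means in dissected than in normal areas of both kinds, which their choice by likeness to Mfsd2a favours.

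For Nupr1l, with an SD of 0.49, the nearest genes were Zkscan1 and Pex3, a peroxisome assembly factor (both 0.28), Zfp433 (0.29), Rnf43, a ubiquitin ligase that restrains Wnt receptors (0.30), and the transcript TC1463225 (0.30), against 0.56 for the median gene. Rnf43 averaged -0.56 in dissected central and 0.16 in normal central areas. For Nupr1, with an SD of 0.38, they were Ifngr2, a subunit of the interferon gamma receptor, and Slc15a4, a lysosomal transporter (both 0.23), and then Nudcd2, Mettl6 and Ccdc47 (each 0.24), against 0.48 for the median gene. Slc15a4 averaged 0.29 in dissected peripheral and -0.49 in normal peripheral areas. These likenesses share the arrays, their dimness and their normalization.

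Genes of the integrated stress response, the pathway that induces Nupr1, had no member that passed the test. Of 28 measured targets of ATF4 and partners, 0 passed the limma test in either area and direction, as 0% of all genes did. That share of all genes stands beside every count of 0 in the lists below, so those counts say nothing about the lists themselves. In the central comparison 768 genes, 5.24%, had an unadjusted p under 0.05. Central differences were above 0 for 20 of the 28 genes (median 0.09, all genes -0.01), and peripheral ones for 14 of 28 (median 0, all genes 0.01). Of all 14664 genes 7146 and 7482 were above 0. Cebpb, a transcription factor acting beside ATF4, had 0.37 ± 0.27 in dissected central and -0.26 ± 0.31 in normal central areas (SD, n = 5 each). The difference was 0.64 (SE 0.20, limma adjusted p = 0.698), with dissected arrays wholly above normal ones, as for 0.43% of all genes. Psph, of serine synthesis, differed by -0.62 there (limma adjusted p = 0.93). In the periphery Ddit4, an inhibitor of mTORC1, differed by 0.68 (SE 0.32, limma adjusted p = 0.594). All its dissected arrays lay above the normal ones, as for 2.15% of all genes. Sars, a transfer RNA synthetase, differed there by -0.59 (limma adjusted p = 0.594).

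Targets of p53, which in human cells induces the Nupr1l ortholog, likewise had 0 of 21 measured genes called in either area. Their medians were 0.06 in the central area and 0.08 in the periphery. Trp53inp1, a stress protein that promotes p53 activity and autophagy, differed by -0.42 (SE 0.20, limma adjusted p = 0.954) in the central area and by 0.70 (SE 0.23, limma adjusted p = 0.521) in the periphery. Phlda3, an inhibitor of AKT, differed by 0.62 in the central area (limma adjusted p = 0.845) and Ccng1, cyclin G1, by 0.36 in the periphery (limma adjusted p = 0.556). Of 11 partners and downstream genes of Nupr1, 0 were called in either area, with medians of 0.01 and 0.17. Prothymosin alpha (Ptma), a binding partner of human NUPR1, differed by 0.42 in the periphery (SE 0.19, limma adjusted p = 0.591), and Tfam, the mitochondrial transcription factor, by -0.63 (limma adjusted p = 0.598). In the central area Hif1a, the hypoxia factor, differed by -0.27 (limma adjusted p = 0.998).

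On the side of Mfsd2a, no enzyme or carrier of lysophospholipids was called in either area, with 0 of 21 measured and medians of -0.01 and 0.04. No probe was named for Mfsd2b, its closest relative. Agpat3, an acyltransferase that places fatty acids on lysophospholipids, had 0.16 ± 0.39 in dissected central and -0.44 ± 0.18 in normal central areas (SD, n = 5 each). The difference was 0.60 (SE 0.17, limma adjusted p = 0.692), with dissected arrays wholly above normal ones, as for 0.43% of all genes. Pla2g4a, the cytosolic phospholipase that releases arachidonic acid, differed by -0.48 there (limma adjusted p = 0.898). Gpcpd1, a glycerophosphocholine phosphodiesterase, differed by 0.73 in the periphery (SE 0.33, limma adjusted p = 0.594) and the acyltransferase Agpat1 by -0.35 (limma adjusted p = 0.647).

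Genes induced by fasting through PPAR alpha, a setting in which mouse liver raises Mfsd2a, had 0 of 16 measured members called, with medians of -0.07 in the central area and 0.09 in the periphery. Plin2, a lipid droplet coat protein, had the smallest p of that list in both. It averaged 0.15 ± 0.22 in dissected central and -0.37 ± 0.25 in normal central areas (SD, n = 5 each), a difference of 0.52 (SE 0.15, limma adjusted p = 0.692). In the periphery its difference was 0.61 (SE 0.18, limma adjusted p = 0.454), dissected arrays lying wholly above normal ones, as for 2.15% of all genes.

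Genes that glucocorticoids induce had 0 of 15 members called, and 12 of 15 lay above 0 in each area, with medians of 0.08 and 0.19. Of all 14664 genes 7146 lay above 0 in the central area and 7482 in the periphery, with medians of -0.01 and 0.01. Tsc22d3, the leucine zipper protein GILZ, averaged 0.51 ± 0.26 in dissected central and 0.02 ± 0.28 in normal central areas (SD, n = 5 each), a difference of 0.49 (SE 0.15, limma adjusted p = 0.698). In the periphery it averaged 0.52 ± 0.08 (SD, n = 5) after surgery and -0.17 ± 0.30 (SD, n = 3) in normal thyroid. The difference was 0.69 (SE 0.18, limma adjusted p = 0.386), with dissected arrays wholly above normal ones, as for 2.15% of all genes. Glul, glutamine synthetase, differed by 0.64 in the central area (limma adjusted p = 0.869), and Errfi1, an inhibitor of the EGF receptor, by 0.80 in the periphery (limma adjusted p = 0.593).

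Endothelial cells, in which Mfsd2a is best known, were followed by 12 markers, all measured. None was called in either area, and 6 of 12 lay above 0 in each, with medians of -0.01 in the central area and -0.02 in the periphery. Their mean log2 ratio was -0.34 to 0.17 on dissected central and -0.49 to 0.04 on normal central arrays. Eng, endoglin, differed by 0.48 in the central area (SE 0.19, limma adjusted p = 0.869), Tek, the angiopoietin receptor, by 0.65 there and -0.75 in the periphery (limma adjusted p = 0.998 and 0.668), and Cldn5, a tight junction protein, by -0.42 in the periphery (limma adjusted p = 0.638). Adipocyte markers, with 7 of 8 measured, ran from -0.44 to 0.08 on dissected central and from -0.97 to 0.30 on normal central arrays, macrophage markers (8 of 9) from -0.24 to 0.09 and from -0.44 to 0.23, and muscle markers (4 of 7) from -1.10 to 1.39 and from -1.41 to 0.35. Pth, the parathyroid hormone gene, was at 3.99 on normal central 3 and between -5.17 and -1.8 on all other arrays. The part of these cells in the Mfsd2a and Nupr1l differences was not tested.

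Jdp2, a repressor of AP-1 sites that had the smallest p of all genes in the central comparison, is a point of reference for size. Its mean log2 ratio was 0.19 in dissected central and -0.60 in normal central areas, a difference of 0.80 that was less than that of Mfsd2a, and its peripheral difference was 0.05. The Fam220a probes carry the name that had been listed as an alias of Nupr1l, and they belong to another gene. The brighter probe averaged 0.08 ± 0.60 in dissected central and 0.11 ± 0.17 in normal central areas, and the other -0.16 ± 0.18 and 0.07 ± 0.19 (SD, n = 5 each). For both probes the dissected and normal central arrays overlapped. So they did for most genes, since only 0.43% lay wholly above and 0.573% wholly below. Nothing about the Nupr1l probe is read from this.

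**Figure D4:**
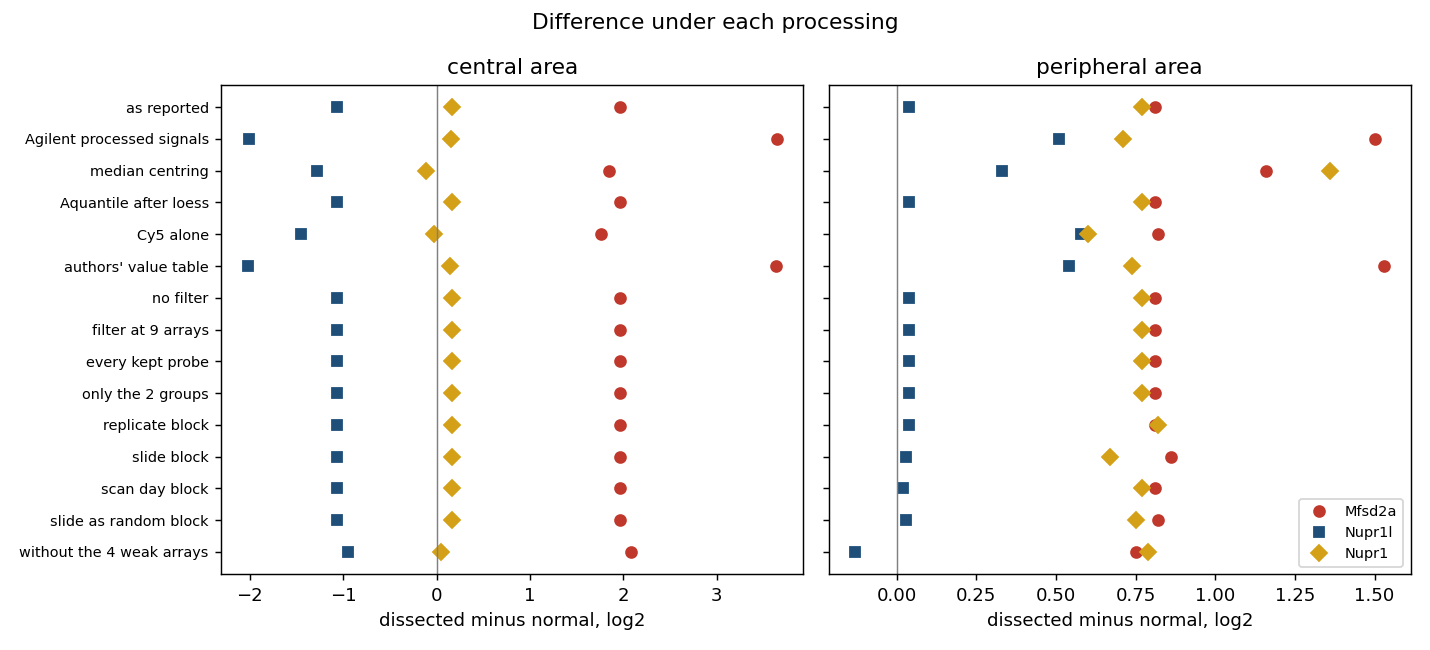
Dissected minus normal difference in log2 ratio of each gene, by area, as reported and under each of 14 other ways of processing (rows). In the central area, whose differences chose Mfsd2a and Nupr1l, Mfsd2a lies at 1.76 to 3.64, Nupr1l at -2.02 to -0.95 and Nupr1 at -0.11 to 0.16. Filters, blocks, Aquantile and the fit to only the 2 groups compared cannot change these central differences. In the periphery Nupr1 lies at 0.60 to 1.36.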

How the data were processed

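The deposited scanner files hold, for Cy5 and Cy3, the intensity of each spot and of its local background. The scanning software was Feature Extraction 9.5.1.1 according to the headers, while version 8.5.1.1 of it stands in the submitters' processing notes. Per the file headers, processed intensity was background-subtracted, detrended and dye-normalized. The deposited log10 ratio was not used, and the flags for signal well above background and for non-uniform spots were. The authors also deposited a table of linear ratios with no processing step given in the sources used here. It was used as an alternative, its direction and linear scale read from the values. Its column medians ran from 0.871 to 1.06, and after centring each probe its columns correlated with the scanner values at 0.708 to 0.916. The centring served that correlation only, and the earlier processing of the deposited ratios is unknown.

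Mean intensities were background-corrected (normexp, offset 50) and loess-normalized within arrays to log2 ratios, control spots at weight 0. The 41174 gene probes were named by RefSeq accession (22951), current symbol (6659) or older symbol (3109), and 8455 kept the file's name. Probes well above background in Cy5 on at least 3 arrays were kept (19082), and the brightest stood for its gene (14664). Probe positions are on mm7, of which no genome was used, so the exon or untranslated region was not determined.

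A single model of limma 3.58.1 under R 4.3.3 with 4 group means was fitted to 18 arrays. Adjustment was by Benjamini-Hochberg over all genes, and tests were two-sided. The fit was also run on simulated independent values with log2 differences of 2 and no slide effect. Those differences exceed the peripheral ones of the members, so the simulation does not bear on differences of their size. The number of arrays limits the precision. Members, lists, tests and alternatives were chosen with earlier results of these data known. Genes named were the members, of the gene lists the 2 with the smallest unadjusted p in each area (for cell type markers, some of these; a few genes are not reported here), the 5 nearest each member, and Jdp2. The 18 arrays lay on 5 slides scanned on 2 days. Replicate numbers follow slides except normal peripheral 3, and same-numbered arrays correlated in their deviations from group means at -0.05 to 0.231, so the numbers were not taken to pair samples. Alternatives covered background, normalization, channel, filter, blocks, weak arrays and each array left out.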

Additional observations from a re-analysis of the deposited data

How the results depend on the processing

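No member was called in the periphery under any of 14 other settings or with any of 18 arrays left out. Limma adjusted p ran from 0.111 to 0.852 for Nupr1 over the settings and from 0.216 to 0.722 over the arrays left out, from 0.2 to 0.999 and from 0.314 to 0.999 for Mfsd2a, and from 0.477 to 0.999 and from 0.883 to 1 for Nupr1l. In the central area Agilent's processed signals gave 3.64 for Mfsd2a and -2.01 for Nupr1l, the authors' value table gave 3.63 and -2.02, and Cy5 alone gave -1.45 for Nupr1l. The cause was not tested. Nupr1 reversed there, to -0.11 with median centring (0.03 above the median of all genes) and to -0.03 with Cy5 alone, and Nupr1l reversed in the periphery, to -0.13 without the 4 weak arrays and -0.11 without normal peripheral 1. Genes called in the periphery numbered 5 with median centring, 1 with processed signals, 1 with the value table and 0 to 1 with single arrays left out, the 1 being without normal peripheral 3. With an array left out, central differences were 1.81 to 2.12 for Mfsd2a, 0.08 to 0.23 for Nupr1 and -1.20 to -0.93 for Nupr1l, and peripheral ones 0.45 to 1.20, 0.69 to 0.89 and -0.11 to 0.16. With the replicate block the peripheral differences were 0.82 for Nupr1 (limma adjusted p = 0.195), 0.81 for Mfsd2a (0.538) and 0.04 for Nupr1l (0.964), with 0 genes called. Central differences were the same by construction under the replicate, slide and scan day blocks, the filters and the fit to only the 2 groups compared. So they were under Aquantile, which leaves ratios unchanged. The correlation within slides was 0.084. Dim signal limits Mfsd2a and Nupr1l most, each well above background on 15 of 18 arrays.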

Other observations

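Relatives of Mfsd2a in the major facilitator superfamily had 0 of 15 measured members called by limma in either area, with median differences of -0.01 in the central area and 0.11 in the periphery. Slc46a3, a lysosomal member, had 0.54 ± 0.51 in dissected central and -0.17 ± 0.45 in normal central areas (SD, n = 5 each), a difference of 0.71 (limma adjusted p = 0.869), and Mfsd11 differed by 0.19 there. In the periphery the smallest p belonged to Mfsd1, with a difference of 0.39, and to Slc37a1, with 0.27 (limma adjusted p = 0.693 and 0.726).

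Genes of fatty acid uptake and activation had 0 of 20 members called in either area, with medians of 0.07 and 0.03. The fatty acid binding protein gene Fabp5 differed by 0.40 in the central area (limma adjusted p = 0.998), as did Pnpla2, the adipose triglyceride lipase. In the periphery Lipe, the hormone-sensitive lipase, had -0.46 ± 0.34 (SD, n = 5) after surgery and 0.15 ± 0.45 (SD, n = 3) in normal thyroid, a difference of -0.61 (limma adjusted p = 0.583), and Dbi, the acyl-CoA binding protein, differed by 0.29 (limma adjusted p = 0.704).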
